A study of Mus musculus with 6 samples.

Results

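The genes described here are those of fatty acid oxidation together with liver target genes of PPAR-alpha, 39 in all, chosen by name from the pathway's enzymes, carriers and regulators. They were chosen with earlier results of these data known. All 39 were found among the 55416 genes of the count table, and all 39 passed the filter on low counts that left 17083 genes for testing. RNA was measured by sequencing in whole liver of 6 male mice. The 3 KO livers came from mice with both Ephb2 alleles floxed and the Pdgfrb-CreERT2 transgene, a tamoxifen-switched recombinase driven by the Pdgfrb promoter and used to reach hepatic stellate and other mesenchymal cells. The 3 WT livers came from mice with the same floxed alleles and no Cre. Every animal received tamoxifen on 5 days at an age of 8 to 10 weeks and then ate the CDAA high-fat diet for 8 weeks. Fat supplied 45% of the calories of this diet, methionine was held at 0.1%, cholesterol was set at 1% and choline was left out. Hepatocytes, which carry most of the pathway described here, are not a target of this driver. Mice with Cre and no floxed Ephb2 were not analysed here, so Cre and the deletion cannot be told apart, and neither were mice on a normal diet.

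Hepatocytes burn fatty acids mainly in mitochondria. A long-chain fatty acid is joined to coenzyme A, passed through the carnitine shuttle and shortened in repeated cycles of dehydrogenation, hydration, oxidation and thiolysis, and the liver turns much of the acetyl-CoA into ketone bodies. Peroxisomes shorten very long chains, and cytochromes of the Cyp4a family in the endoplasmic reticulum oxidise the far end of the chain. PPAR-alpha is a nuclear receptor that binds fatty acids and, paired with RXR, switches on many of these genes during fasting. Its binding element is a direct repeat of the half-site AGGTCA with 1 base between the copies.

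Total counts per library ran from 21160690 to 26339251 in KO and from 21411113 to 23100862 in WT livers. Levels are given as CPM, read counts relative to the library total, scaled between libraries by the TMM method. Albumin was the most abundant gene of the table. Ephb2 stood at 6.01, 8.87 and 6.95 CPM in KO replicates 1 to 3, against 9.46, 8.28 and 12.4 CPM in WT replicates 1 to 3. The genotypes overlapped (log2 fold change -0.46, SE 0.21, edgeR adjusted p = 0.850; two-sided exact permutation p = 0.2, where 3 against 3 libraries allow none below 0.1). The labels number the animals and say no more about how they relate, so p-values measure only the spread between these samples.

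Near-identical copies within the list limit what a read count can say. The Cyp4a genes lie together on mouse chromosome 4 of GRCm38, from Cyp4a12a (115299046 to 115332815) to Cyp4a32 (115600969 to 115621602). The coding sequence of Cyp4a10 was 97.19% identical to that of Cyp4a32, 96.6% to Cyp4a31 and 76.77% to Cyp4a14. The last 90 coding bases before the stop codon, from GENCODE M21 on GRCm38, show how few bases tell the first 3 apart. Capitals mark bases that differ from Cyp4a10, 5 in Cyp4a32, 3 in Cyp4a31 and 19 in Cyp4a14.
Cyp4a10: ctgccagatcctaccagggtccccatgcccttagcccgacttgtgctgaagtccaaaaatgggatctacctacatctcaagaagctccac
Cyp4a32: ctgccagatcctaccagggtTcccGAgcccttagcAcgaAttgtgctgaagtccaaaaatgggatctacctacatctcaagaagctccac
Cyp4a31: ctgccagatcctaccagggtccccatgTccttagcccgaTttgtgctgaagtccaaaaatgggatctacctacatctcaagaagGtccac
Cyp4a14: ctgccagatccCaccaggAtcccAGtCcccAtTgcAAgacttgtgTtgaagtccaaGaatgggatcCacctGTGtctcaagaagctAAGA
The thiolases Acaa1a and Acaa1b on chromosome 9 form a second such pair, with 96.55% identity over the coding sequence and 2 differing bases, again in capitals, in the same window.
Acaa1a: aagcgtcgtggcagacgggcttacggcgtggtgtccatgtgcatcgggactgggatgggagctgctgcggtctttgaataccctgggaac
Acaa1b: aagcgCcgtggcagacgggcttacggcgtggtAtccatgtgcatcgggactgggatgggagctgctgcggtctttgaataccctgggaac
Of all stretches of 100 bases in the longest coding transcript, 12.7% of those of Cyp4a10, 8.22% of Cyp4a31, 20.1% of Cyp4a32, 35.8% of Cyp4a12a, 21.6% of Acaa1a and 22.6% of Acaa1b also occurred in another gene. The share was 21.9% for Acot1 and 17.1% for Acot2, and 0% for Cyp4a14. Values of such genes are therefore uncertain in how reads were divided between the copies.

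The RefSeq promoter table (GRCm38.p6) held 35 windows for 32 of the 39 genes, each from 250 bases before to 50 after a start site. A direct repeat of the PPAR kind, searched on both strands as AGGNCANAGGNCA where N is any base, lay in the window of 1 of the 32 genes, Fabp1, and in 0.381% of all 32851 windows. The half-site AGGTCA, which also matches inside a direct repeat spelled that way, lay in 9 of the 35 windows, 25.7%, against 16.3% of all windows. The Fabp1 window is printed because it holds the repeat, at 67 bases before the start site, and the Cpt1a window because Cpt1a controls entry into the pathway. Both are on the plus strand, at chr6:71199629-71199928 for Fabp1 and chr19:3323051-3323350 for Cpt1a, with matches in capitals (TGACCT is AGGTCA read on the other strand).
Fabp1: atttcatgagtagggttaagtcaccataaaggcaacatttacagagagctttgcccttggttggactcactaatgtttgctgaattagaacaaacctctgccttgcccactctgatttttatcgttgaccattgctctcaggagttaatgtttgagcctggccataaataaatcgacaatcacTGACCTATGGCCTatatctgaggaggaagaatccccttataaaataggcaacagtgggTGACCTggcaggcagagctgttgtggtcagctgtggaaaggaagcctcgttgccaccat
Cpt1a: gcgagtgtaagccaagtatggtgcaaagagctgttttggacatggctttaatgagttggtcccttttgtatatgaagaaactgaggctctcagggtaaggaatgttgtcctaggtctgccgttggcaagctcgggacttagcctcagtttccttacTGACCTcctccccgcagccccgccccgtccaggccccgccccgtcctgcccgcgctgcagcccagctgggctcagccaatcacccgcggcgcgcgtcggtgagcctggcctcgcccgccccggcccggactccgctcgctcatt
A match describes letters in this window and no more, and many elements of this kind lie farther from the start site than these windows reach.

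The 39 genes spanned a wide range of levels. Compared per length, as mean CPM per kilobase of exon over the 6 libraries, Fabp1 came first at 399.6. Acaa1b followed at 288.1, Acaa2 at 216.8, Slc27a2 at 214.5 and Crot at 187.0. The lowest were Acot3 at 0.384, Acot1 at 3.85 and Cyp4a12a at 4.89 CPM per kilobase. Exon length here joins the exons of all transcripts of a gene, which lowers the value of genes with long alternative exons. Neighbours in this order such as Acaa2 and Slc27a2 lay closer together than the spread between libraries.

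Between the genotypes, 38 of the 39 genes had a lower fitted level in KO liver and 1, Acaa1b, a slightly higher one, but none passed the test. The median log2 fold change of KO over WT was -0.22, against -0.0048 over all 17083 genes tested, of which 51% were negative. edgeR's quasi-likelihood test with Benjamini-Hochberg adjustment over all genes called 0 of the 39, and 0% of all genes (smallest adjusted p = 0.850 for both). At an unadjusted p under 0.05 there were 4 of the 39, against 5.19% of all genes. All 4 lay lower in KO and 0 higher, where 2.1% of all genes were lower and 3.08% higher. limma-voom also called 0 of the 39. At its unadjusted p under 0.05, 5 lay lower and 0 higher, against 345 lower and 536 higher of all 17083 genes. DESeq2's Wald test called 0 of the 39. At its unadjusted p under 0.05, 5 lay lower and 0 higher, against 407 lower and 430 higher of 29606 genes. The 95% interval included 0 for 35 of the 39. All 39 were measured in the same 6 livers, so 38 like signs are not 38 separate observations. Whole liver cannot tell fewer cells of a type from less RNA per cell.

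**Figure D1:**
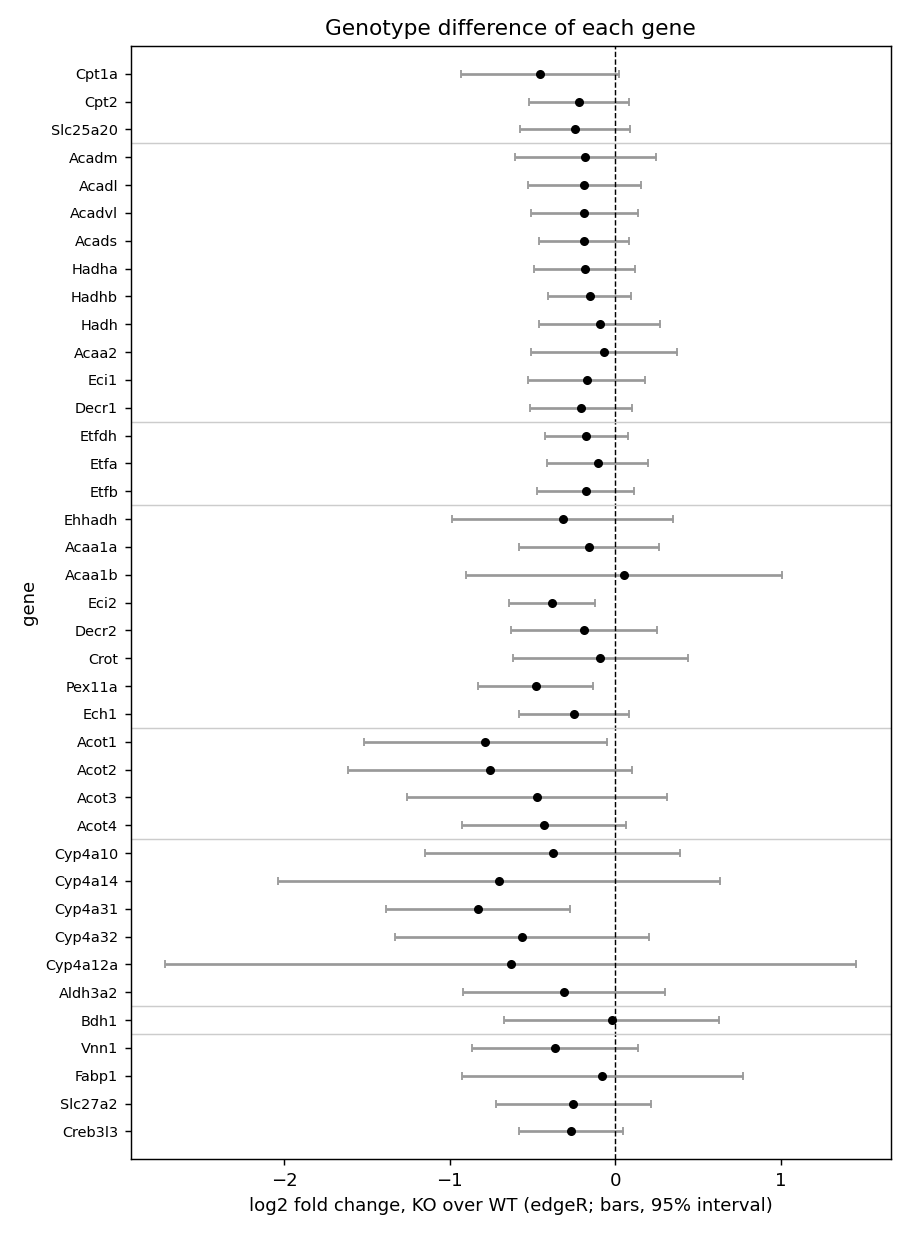
Fitted log2 fold change of KO over WT for each of the 39 genes, with its 95% interval, grouped from top to bottom as carnitine shuttle, mitochondrial beta-oxidation, electron transfer, peroxisome, thioesterases, microsomal, ketone body, and uptake and regulation. All points but that of Acaa1b lie left of 0, from -0.83 for Cyp4a31 to 0.055 for Acaa1b, and the intervals of all but Acot1, Cyp4a31, Eci2 and Pex11a cross 0.

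The 3 KO livers did not behave alike. KO replicate 2 held the lowest value of the 6 libraries for 24 of the 39 genes and KO replicate 3 for 12, while KO replicate 1 held the highest for 9 and the lowest for none. KO replicate 2 lay below every WT library in 34 of the 39 genes (22.8% of all genes tested), KO replicate 3 in 27 (26.9% of all genes) and KO replicate 1 in 5 (20.4% of all genes). Among the WT livers, replicates 1 and 2 each held the highest value for 13 genes and replicate 3 for 4. WT replicate 3 held the lowest value for 3 genes. Highest and lowest libraries were counted for the 39 genes alone, not over all genes tested. Without KO replicate 1 the median log2 fold change was -0.38, and 22 of the 39 genes lay lower at an unadjusted p under 0.05, against 2.31% of all genes, still with 0 called. With any other library left out, only 3 to 6 of the 39 lay lower at that threshold, against 212 to 776 of all genes. Without KO replicate 2 the median was -0.12, and without WT replicate 3 it was -0.33.

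**Figure D2:**
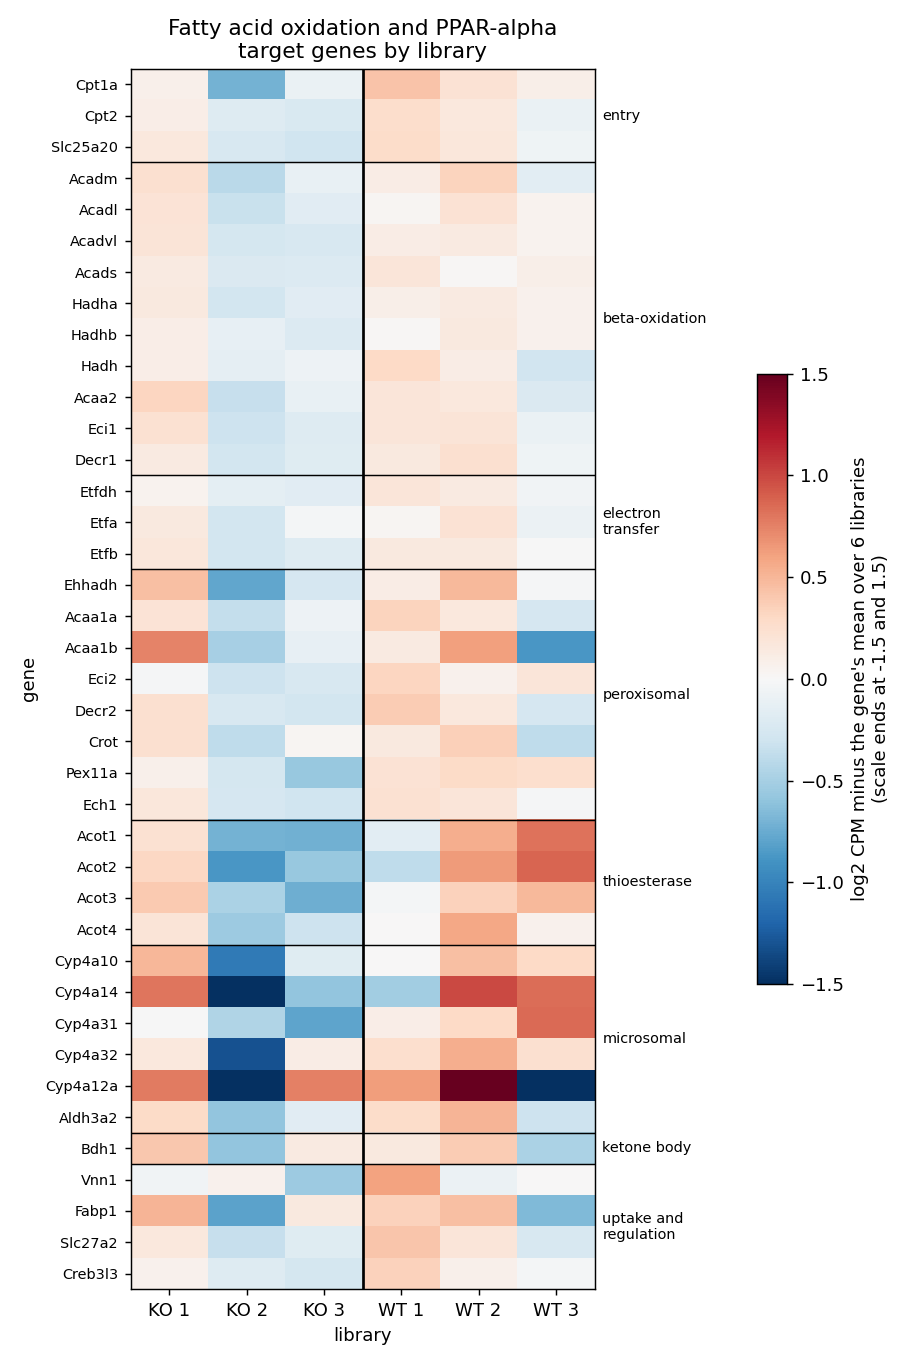
Level of the 39 genes in each library, as log2 CPM minus the gene's mean over the 6 libraries, KO libraries left of the line and WT libraries right of it. Blue, for values below the mean, fills most of the columns of KO replicates 2 and 3, KO replicate 1 holds the highest value of 9 genes, and WT replicate 3 is blue for Acaa1b, Fabp1, Bdh1 and Cyp4a12a but red for Acot1, Acot2 and Cyp4a31; values past either end of the scale are drawn at its end.

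Hepatocyte and acute phase RNA differed between the same libraries. The 11 hepatocyte markers summed to 79387, 63054 and 74202 CPM in KO replicates 1 to 3, against 79393, 78268 and 72028 CPM in WT replicates 1 to 3, so KO replicate 2 was lowest. The 13 acute phase genes, which encode proteins that hepatocytes secrete in inflammation, summed to 19648, 43296 and 17257 CPM in KO and 33211, 16585 and 40725 CPM in WT libraries. Acute phase RNA was thus highest in KO replicate 2, then WT replicate 3 and WT replicate 1, and lower in the remaining livers. WT replicate 1 held the highest value for 13 of the 39 oxidation genes. KO replicate 3, low in oxidation genes, was among the livers with less acute phase RNA. The 8 neutrophil markers summed to 40.5, 101 and 36.4 CPM in KO and 72.4, 30.4 and 153 CPM in WT libraries. They were highest in WT replicate 3, then KO replicate 2, then WT replicate 1. The 9 Kupffer cell markers, all with a lower fitted level in KO, summed to 635, 593 and 408 CPM in KO and 664, 509 and 1217 CPM in WT libraries. WT replicate 3 stood far above the rest, and WT replicate 2 lay within the KO range. The 8 bile duct markers, all with a higher fitted level in KO, summed to 460 to 586 CPM in KO and 313 to 447 CPM in WT livers. Pkhd1 made up most of this sum, and its libraries overlapped (272, 250 and 369 CPM in KO, 171, 251 and 168 CPM in WT). Of 11 stellate cell markers, 7 had a lower and 4 a higher fitted level in KO. All 8 endothelial markers had a lower one, with the highest sum in WT replicate 3. The genes of a list share the same 6 livers, so like signs are not separate observations. No marker of these lists was at 0 in every library, and their part in the values of the oxidation genes was not tested. Other tissues that oxidise fat were scarcely seen. Ucp1 was at 0 in every library with the 8 adipocyte markers summing to 13.1 to 13.6 CPM in KO and 13.3 to 18.1 CPM in WT livers. Myh4 and Myh6 were at 0, with the 8 muscle markers at 6.60 to 9.32 CPM in KO and 3.59 to 8.23 CPM in WT livers.

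The carnitine shuttle brings long-chain acyl groups into the mitochondrion. Cpt1a (ENSMUSG00000024900, chromosome 19, 3322334 to 3385733) encodes the outer-membrane transferase that sets the rate of entry. It stood at 499, 289 and 442 CPM in KO replicates 1 to 3, against 636, 547 and 502 CPM in WT replicates 1 to 3. All KO livers lay below all WT livers, though KO replicate 1 was close to WT replicate 3, and the log2 fold change was -0.45 (SE 0.21, 95% interval -0.93 to 0.022, edgeR adjusted p = 0.850). Without KO replicate 2 the log2 fold change of Cpt1a was -0.26. Slc25a20, the inner-membrane carrier that trades acylcarnitine for carnitine, was at 74.8, 56.8 and 54.6 CPM in KO and 81.3, 75.1 and 64.1 CPM in WT libraries. Cpt2, which re-forms the acyl-CoA inside, was at 108, 88.0 and 86.0 CPM in KO and 121, 112 and 93.7 CPM in WT libraries. For both, KO replicate 1 fell inside the WT range.

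The 10 enzymes of the mitochondrial cycle all had a lower fitted level in KO, with log2 fold changes from -0.20 to -0.067 and a median of -0.18. None passed the test or separated the genotypes, and the signs of Hadh and Acaa2 turned with a library left out. Acadm, the medium-chain dehydrogenase, was at 252, 162 and 198 CPM in KO and 231, 269 and 193 CPM in WT libraries. Hadha, which with Hadhb forms the trifunctional protein for long chains, was at 364, 271 and 291 CPM in KO and 350, 359 and 343 CPM in WT libraries. KO replicate 1 was above every WT library for Hadha, and the other KO livers were below all of them. Hadhb, whose gene sits head to head with Hadha on chromosome 5, was at 182, 156 and 147 CPM in KO and 173, 189 and 178 CPM in WT libraries, and 52.8% of its 100-base stretches also occur in the annotated gene Gm13910. Acads, the short-chain dehydrogenase, had the smallest p of the 10 with 134, 105 and 106 CPM in KO and 138, 123 and 130 CPM in WT libraries (log2 fold change -0.19, SE 0.12, edgeR adjusted p = 0.850). Decr1, the mitochondrial reductase for unsaturated chains, was at 127, 95.1 and 102 CPM in KO and 127, 136 and 110 CPM in WT libraries. For each of these 5 enzymes KO replicate 1 lay within or above the WT range and was the highest KO liver. The very-long-chain and long-chain dehydrogenases Acadvl and Acadl (-0.19 for both), the isomerase Eci1 (-0.17), the hydroxyacyl dehydrogenase Hadh (-0.094) and the thiolase Acaa2 (-0.067) completed the group. The exons of Acadvl overlap those of Dvl2 on the opposite strand over 42.9% of their length, so its reads may be partly shared.

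The electron transfer flavoproteins, which carry electrons from the acyl-CoA dehydrogenases to the respiratory chain, overlapped between the genotypes. Etfdh, the ubiquinone oxidoreductase, was at 188, 164 and 162 CPM in KO and 205, 200 and 175 CPM in WT libraries. Etfa, the alpha subunit, was at 171, 128 and 151 CPM in KO and 159, 180 and 146 CPM in WT libraries. Etfb, the beta subunit, was at 69.8, 51.2 and 54.2 CPM in KO and 68.6, 68.1 and 61.5 CPM in WT libraries, and shares 65.2% of its 100-base stretches with the overlapping gene Gm45233. Their log2 fold changes of -0.18, -0.11 and -0.18 lay within 2 SE of 0. Across all 16 mitochondrial genes the mean log2 CPM was 7.45, 7.01 and 7.13 in KO and 7.46, 7.47 and 7.25 in WT libraries, so the genotypes overlapped by KO replicate 1 alone.

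Of the 8 peroxisomal genes, 7 had a lower fitted level in KO, and 2 of these separated the genotypes. Eci2 (ENSMUSG00000021417, chromosome 13, 34977748 to 35027096), an isomerase that readies unsaturated chains for oxidation, was at 100.5, 82.0 and 86.6 CPM in KO and 128, 107 and 116 CPM in WT libraries. Its log2 fold change was -0.38 (SE 0.11, edgeR unadjusted p = 0.00921, adjusted p = 0.850). Pex11a (ENSMUSG00000030545, chromosome 7, 79735957 to 79743131), a membrane protein of peroxisome division and a PPAR-alpha target, was at 43.2, 34.3 and 27.6 CPM in KO and 47.7, 49.8 and 48.8 CPM in WT libraries. The WT livers were tightly grouped and the KO livers spread below them, with a log2 fold change of -0.48 (SE 0.15, edgeR unadjusted p = 0.0129, adjusted p = 0.850). Over the whole list the libraries did not overlap for 5 of 39 genes, all lower in KO, against 4.9% of all genes that did so in that direction. With scaling by library size alone, 2 of the 39 lay lower in KO without overlap. None of the 39 separated with KO above WT, as 6.21% of all genes did. Ech1, a dienoyl-CoA isomerase, was at 185, 139 and 134 CPM in KO and 194, 188 and 163 CPM in WT libraries.

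The remaining peroxisomal genes varied more within a genotype than between them. Ehhadh, the bifunctional enzyme of peroxisomal oxidation, was at 426, 183 and 262 CPM in KO and 337, 439 and 308 CPM in WT libraries. Acaa1b, the peroxisomal thiolase copy, was at 877, 371 and 480 CPM in KO and 574, 804 and 285 CPM in WT libraries (log2 fold change 0.055, SE 0.41, edgeR adjusted p = 0.982). The highest Acaa1b value belonged to a KO liver and the lowest to a WT liver. Its sign turned to -0.38 without KO replicate 1 and to -0.26 without WT replicate 3. Acaa1a, its near-identical copy, had a log2 fold change of -0.16 (SE 0.18), Decr2, the peroxisomal reductase, -0.19 (SE 0.19), and Crot, which makes carnitine esters of medium chains for export, -0.089 (SE 0.23).

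The acyl-CoA thioesterases, which release free fatty acids from coenzyme A, had a median log2 fold change of -0.61 with wide error, and none passed the test. The 4 genes lie together on chromosome 12, from Acot2 (83987861 to 83993873) to Acot3 (84052144 to 84060402). Cytosolic Acot1 was at 16.4, 8.53 and 8.42 CPM in KO and 12.5, 20.4 and 24.4 CPM in WT libraries. KO replicates 2 and 3 were lower than every WT liver, but KO replicate 1 exceeded WT replicate 1 (log2 fold change -0.78, SE 0.32, edgeR unadjusted p = 0.0396, adjusted p = 0.850). Mitochondrial Acot2 followed the same libraries at 46.4, 20.5 and 25.2 CPM in KO and 28.7, 58.1 and 68.5 CPM in WT (log2 fold change -0.76, SE 0.37). Peroxisomal Acot4 was at 43.2, 26.1 and 30.7 CPM in KO and 38.2, 56.8 and 39.7 CPM in WT libraries (log2 fold change -0.43, SE 0.22). Acot3 had only 17 to 38 reads per KO library and 25 to 38 per WT library (log2 fold change -0.47, SE 0.34). WT replicate 3, low in Fabp1 and Acaa1b, held the highest level of Acot1, Acot2 and Acot3. Leaving it out moved the log2 fold change of Acot1 to -0.57, and leaving out KO replicate 1 moved it to -1.17.

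The microsomal Cyp4a genes, omega-hydroxylases widely used as readouts of PPAR-alpha, varied most between livers. All 5 had a lower fitted level in KO, with a median log2 fold change of -0.63. Cyp4a31 (ENSMUSG00000028712, chromosome 4, 115563649 to 115579015) was at 33.1, 24.2 and 19.3 CPM in KO and 35.6, 40.7 and 59.9 CPM in WT libraries. Its genotypes did not overlap, and its log2 fold change of -0.83 (SE 0.24, edgeR unadjusted p = 0.00877, adjusted p = 0.850) was the most negative of the 39. Cyp4a32 was at 19.5, 7.05 and 18.7 CPM in KO and 20.7, 25.5 and 20.5 CPM in WT libraries, without overlap but with 2 KO livers close to the WT range (log2 fold change -0.56, SE 0.33). Both belong to the near-identical group shown above, so the split between them and Cyp4a10 is uncertain.

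Cyp4a14, whose reads are not shared with another gene at that length, was at 232, 46.7 and 88.4 CPM in KO and 92.5, 265 and 239 CPM in WT libraries. WT replicate 1 was close to KO replicate 3, and KO replicate 1 close to the other WT livers (log2 fold change -0.70, SE 0.58, edgeR adjusted p = 0.858). Leaving out KO replicate 1 gave -1.56 for Cyp4a14 and leaving out KO replicate 2 gave -0.31. Cyp4a10 was at 147, 49.9 and 92.1 CPM in KO and 105, 143 and 128 CPM in WT libraries (log2 fold change -0.38, SE 0.33). Cyp4a12a, a male-biased member of the family, ran from 2.20 to 13.0 CPM in KO and from 1.48 to 29.8 CPM in WT livers, a 20.1-fold span over the 6 libraries. Its interval of -2.72 to 1.45 on the log2 scale was the widest of the list, and without WT replicate 2 its sign turned to 0.49. Aldh3a2, which oxidises fatty aldehydes in the endoplasmic reticulum, had a log2 fold change of -0.31 (SE 0.26).

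The classes differed in how far they ranged between livers. Mean log2 CPM over the 5 Cyp4a genes was 5.62, 3.96 and 5.04 in KO and 5.27, 6.03 and 5.16 in WT libraries, a 4.18-fold span, against a 1.37-fold span for the 16 mitochondrial genes. The span was 1.59-fold for the peroxisomal genes, 2.28-fold for the thioesterases and 1.99-fold for Bdh1. These means join different numbers of genes, which bears on their span. Single Cyp4a genes spanned from 2.95-fold (Cyp4a10) to 20.1-fold (Cyp4a12a). Single mitochondrial genes spanned from 1.27-fold (Etfdh) to 2.20-fold (Cpt1a). KO replicate 2 was lowest in every one of these classes. Relative to the mitochondrial genes of the same library, Cyp4a lay at -1.83, -3.05 and -2.09 log2 units in KO and -2.20, -1.44 and -2.09 in WT libraries. The mean of this difference was -2.32 ± 0.64 in KO and -1.91 ± 0.41 in WT (SD, n = 3 each). KO minus WT was -0.42, smaller in size than the SD of KO and close to that of WT, and the libraries overlapped. The thioesterases relative to the mitochondrial genes gave -3.83 ± 0.29 in KO and -3.40 ± 0.47 in WT, and the peroxisomal genes 0.26 ± 0.11 in KO and 0.30 ± 0.13 in WT (SD, n = 3 each), again with overlap.

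**Figure D3:**
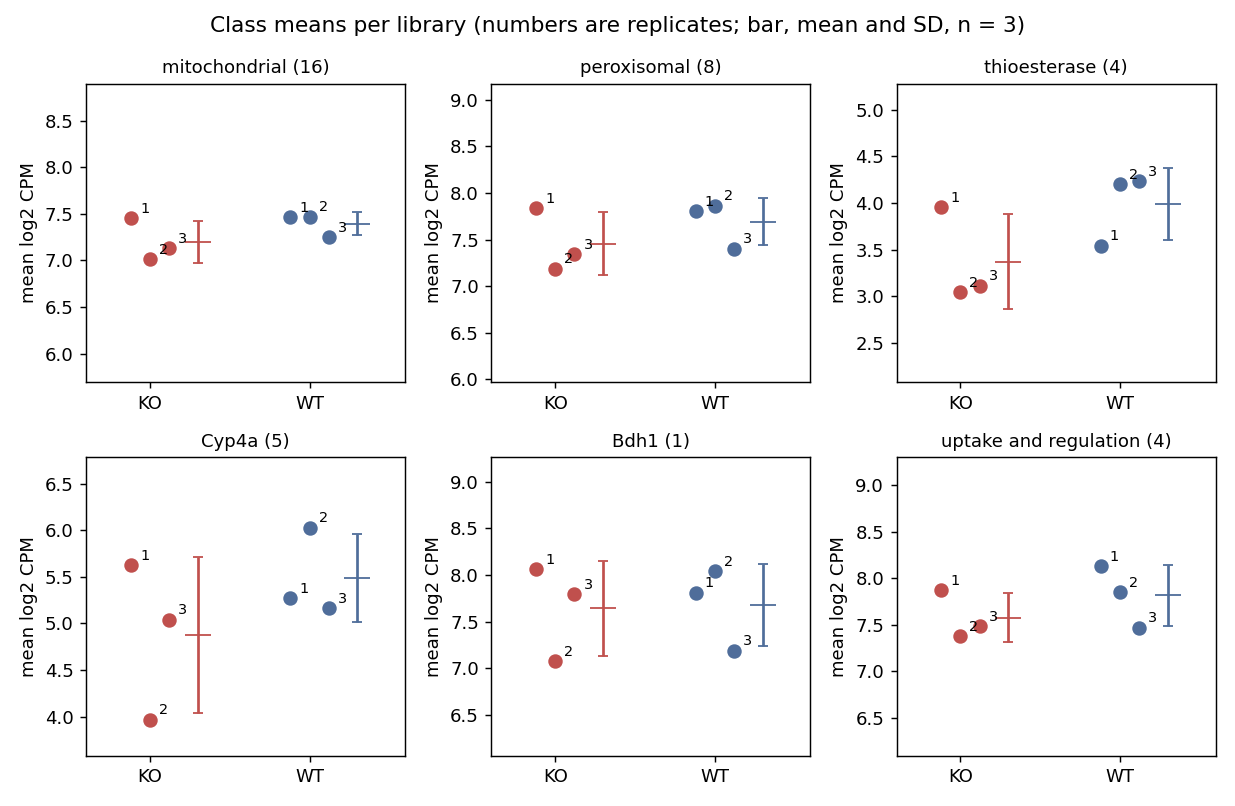
Mean log2 CPM of each class in each library, KO left and WT right in every panel, with the replicate number beside each point, mean and SD as bars, and the number of genes in brackets; each vertical axis spans 3.2 log2 units. The mitochondrial points lie within 7.01 to 7.47, the Cyp4a points spread from 3.96 to 6.03, and KO replicate 2 is the lowest point of every panel.

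The ketone body gene and the 4 uptake, binding and regulation genes all overlapped between the genotypes, and these 4 had a median log2 fold change of -0.26. Bdh1, the mitochondrial dehydrogenase that converts acetoacetate to beta-hydroxybutyrate, was at 267, 135 and 222 CPM in KO and 224, 263 and 146 CPM in WT libraries. The means were 208 ± 67.4 CPM in KO and 211 ± 59.8 CPM in WT (SD, n = 3 each), with a log2 fold change of -0.021 whose sign depends on the scaling (0.054 by library size alone, 0.011 by upper quartile). The 95% interval of Bdh1, from -0.67 to 0.63, does not show that the genotypes were equal. Fabp1, the fatty acid binding protein of the hepatocyte cytosol, was at 296, 119 and 230 CPM in KO and 265, 284 and 131 CPM in WT libraries (log2 fold change -0.077, SE 0.37). Bdh1 and Fabp1 were both lowest in KO replicate 2 and next lowest in WT replicate 3, the livers with the most acute phase RNA. Acot1, Acot2, Acot3 and Cyp4a31 were instead highest in WT replicate 3. A link to acute phase RNA was not tested.

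Slc27a2, which takes up and activates very long chains, was at 884, 622 and 699 CPM in KO and 1057, 898 and 672 CPM in WT libraries (log2 fold change -0.25, SE 0.20). Creb3l3, a membrane-bound transcription factor that acts with PPAR-alpha in fasting, was at 190.3, 158 and 151 CPM in KO and 231, 191 and 178 CPM in WT libraries (log2 fold change -0.27, SE 0.14, edgeR adjusted p = 0.850). Vnn1, the pantetheinase induced by PPAR-alpha, was at 60.1, 65.1 and 42.5 CPM in KO and 94.7, 58.3 and 62.5 CPM in WT libraries. KO replicate 2 was its highest KO liver, and its log2 fold change of -0.36 (SE 0.22) went to -0.12 without WT replicate 1.

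A companion list of 80 further genes of the pathway, also chosen with earlier results of these data known, gave the wider setting. Of these, 78 passed the filter on low counts, 59 had a negative and 19 a positive log2 fold change, where 51% of all genes were negative, and the median was -0.13, against -0.0048 over all genes tested. edgeR called 0 of the 78, and 6 lay lower and 0 higher at an unadjusted p under 0.05, against 2.1% of all genes lower and 3.08% higher. The receptor Ppara itself was at 104, 58.9 and 109 CPM in KO and 133, 114 and 96.1 CPM in WT libraries, with overlap and KO replicate 2 again lowest (log2 fold change -0.34, SE 0.23).

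Angptl4 and Pdk4 had the 2 smallest p of the companion list. Angptl4, a secreted inhibitor of lipoprotein lipase, was at 76.2, 49.5 and 56.8 CPM in KO and 131, 110 and 166 CPM in WT libraries. Every KO liver lay below every WT liver with a gap between them (log2 fold change -1.16, SE 0.20, 95% interval -1.61 to -0.71, edgeR unadjusted p = 0.000361, adjusted p = 0.850). Angptl4 passed without a count filter (edgeR adjusted p = 0.0422) and in DESeq2 (adjusted p = 0.000739). It passed in no other setting, limma-voom and every library left out included. Pdk4, the kinase that shuts glucose carbon out of the mitochondrion when fat is burned, was at 31.8, 20.7 and 23.1 CPM in KO and 63.0, 45.8 and 135 CPM in WT libraries (log2 fold change -1.69, SE 0.38, edgeR adjusted p = 0.850). Here too the genotypes did not overlap, and without WT replicate 3 the log2 fold change of Pdk4 was -1.11. Next by p were Hacl1 (-0.58, SE 0.14), the lyase of peroxisomal alpha-oxidation, Plin5 (-0.50, SE 0.15), a lipid droplet protein that contacts mitochondria, Slc22a5 (-0.58, SE 0.18), the carnitine importer, and Crat (-0.50, SE 0.17), carnitine acetyltransferase. Fgf21, a fasting hormone and PPAR-alpha target, went the other way at 75.0, 41.4 and 31.8 CPM in KO and 21.99, 50.6 and 16.5 CPM in WT libraries (log2 fold change 0.73, SE 0.45, edgeR adjusted p = 0.850), with overlap, and its log2 fold change was 0.30 without KO replicate 1, 0.44 without WT replicate 3 and 1.36 without WT replicate 2.

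**Figure D4:**
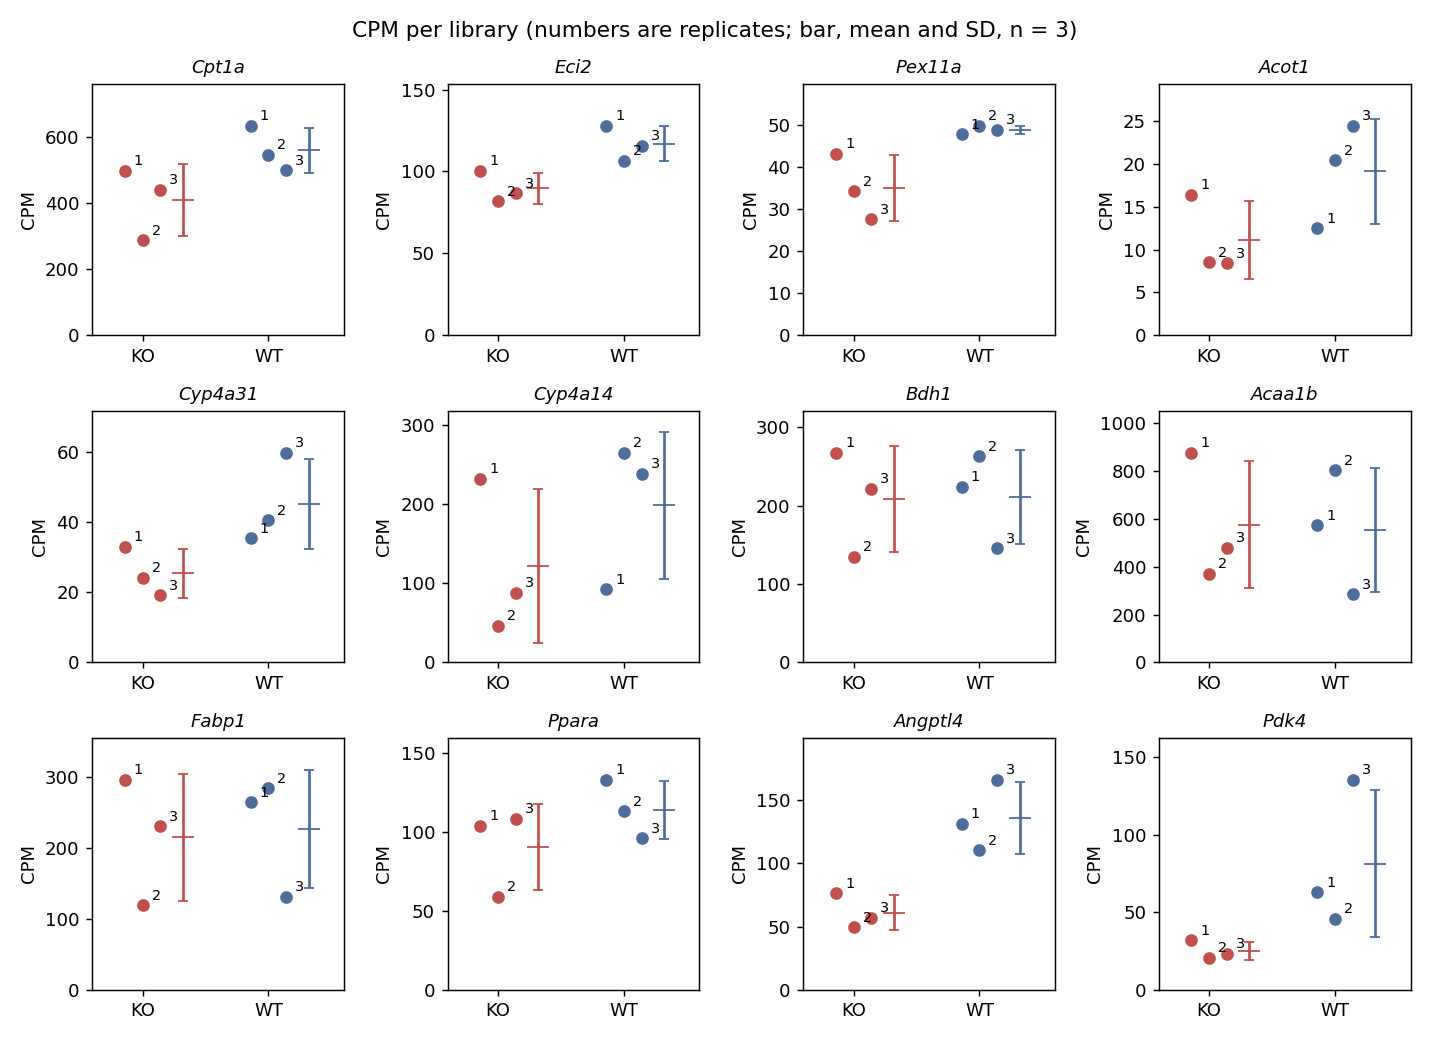
CPM of 9 genes of the list and of Ppara, Angptl4 and Pdk4 in each library, KO left and WT right, with replicate numbers beside the points and mean and SD as bars; every axis starts at 0. The genotypes do not overlap for Cpt1a, Eci2, Pex11a, Cyp4a31, Angptl4 and Pdk4, while for Acot1, Cyp4a14, Bdh1, Acaa1b, Fabp1 and Ppara KO and WT points interleave.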

How the data were processed

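Polyadenylated RNA of 6 livers was made into directional libraries and sequenced on an Illumina NovaSeq, per the labels' protocols. The deposited table holds raw counts of reads for each Ensembl ID in each of the 6 livers, not normalized by the authors. Per the submitters' processing notes, the tools were DESeq2 1.30.0, featureCounts 1.6.3 and STAR 2.7.6a, listed in no order beside the builds mm10 and GRCm38. Which annotation release and strand setting were used, and how reads with several matches were treated, is not stated in them, which bears on the near-identical and overlapping genes.

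GENCODE M21 (GRCm38) supplied symbols, exon lengths and coordinates, with 52135 of the 55416 IDs found in it (94.1%). The test was edgeR 4.0.16 (glmQLFit, glmQLFTest) in R 4.3.3 with genotype as the sole term. Genes were kept by filterByExpr at its minimum count of 10 and total of 15, libraries were scaled by TMM, and the model was fitted on all 17083 genes and adjusted by Benjamini-Hochberg over them at 0.05. SE is the log2 fold change over the root of F. Log2 CPM had 2 as its prior count. The 95% intervals are for the fitted difference between genotypes, with an SE that rests on the spread between libraries. The 39 genes and all lists were chosen with earlier results of these data known. Genes described library by library were the 3 with the smallest p in each class and 12 set by name, and among companions 6 set by name, of which 2 are not reported here, and the next 4 by p. Cyp4a12a and Acot3 were singled out after their values were seen. Of 12 hepatocyte markers, 11 were matched. Alternatives were 3 other scalings, a stricter filter (3 libraries with a CPM of 1 or more), testing without any filter, limma-voom from limma 3.58.1, DESeq2 1.42.0, edgeR with robust fitting, a block for the replicate number and each library left out. In simulated counts for KO against WT over 17083 genes, the test found 18.9% of genes changed 1.5-fold, 66.2% of those changed 2-fold and 96.0% of those changed 4-fold. The changed genes of a run were planted together among genes with a mean CPM of 1 or more. Noise was drawn separately for each gene, without shifts shared by the genes of a liver. These shares hold for that setting and do not give the chance of a call in the real counts. No 2 libraries agreed within sampling noise (chi-square per degree of freedom 10.4 to 69.6).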

Additional observations from a re-analysis of the deposited data

How the results depend on the processing

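None of the 39 genes was called by any test, scaling, filter or library left out. The median log2 fold change of the 39 genes stayed negative throughout, from -0.38 to -0.12 over the libraries left out and -0.14 by library size alone, where the median of all genes was 0.075. The number of negative log2 fold changes ran from 34 to 39 over the libraries left out and was 36 by library size alone. Over all genes, the count called was 3 without a count filter (Angptl4, Pim3 and Klf10), 7 with DESeq2 and 0 to 2 over the libraries left out, the 2 without WT replicate 3 (Mup19 and Mir6236), and the cause was not tested. Without a count filter 8 of the 39 lay lower at an unadjusted p under 0.05 (2.07% of all genes). The count of genes at an unadjusted p under 0.05 was 886, with 527 higher and 359 lower in KO, against 804 higher and 153 lower by library size alone, 1390 in all without a filter and 452 to 1858 over the libraries left out, lowest without KO replicate 3 and highest without WT replicate 2.

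Signs turned for 7 genes near 0 or of wide error, and the cause was not tested. Acaa2 reached 0.011 by library size alone and ranged from -0.27 to 0.072 over the libraries left out. Bdh1 reached 0.054 by library size alone and 0.011 by upper quartile and ranged from -0.25 to 0.21. Over the libraries left out Acaa1b ranged from -0.38 to 0.42, Crot from -0.27 to 0.078, Fabp1 from -0.38 to 0.21, Hadh from -0.24 to 0.036 and Cyp4a12a from -1.17 to 0.49. The replicate numbers pair no samples by the labels, and deviations of same-numbered libraries correlated at -0.026, -0.44 and -0.31. With the replicate block, 0 genes of the table and 0 of the 39 were called, 537 genes had an unadjusted p under 0.05, and the median of the 39 was -0.21. Depth limits Acot3, with 17 to 38 reads in a library.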

Other observations

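Fabp1, among the best known abundant transcripts of hepatocytes, ranked 624 of all genes by mean CPM over the 6 libraries and 80 per kilobase of exon, with 119 to 296 CPM in KO and 131 to 284 CPM in WT livers. Apoa2, a liver transcript of similar exon length (537 against 553 bases), ranked 44 at 1523 to 1904 CPM in KO and 1669 to 2202 CPM in WT livers. Acaa1b ranked 173, Slc27a2 117 and Crot 83 by mean CPM.

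Cyp4a12a, at 13.0, 2.20 and 12.8 CPM in KO and 11.7, 29.8 and 1.48 CPM in WT libraries, shared its lowest library with other genes that male mice express more in liver, chosen after their values were seen. Its near-identical copy Cyp4a12b was at 10.0, 4.13 and 8.78 CPM in KO and 2.97, 17.6 and 1.48 CPM in WT libraries. The fatty acid elongase Elovl3 was at 9.98, 3.53 and 3.21 CPM in KO and 5.45, 8.28 and 0.765 CPM in WT libraries. The organic anion carrier Slco1a1 was at 6.19, 1.59 and 9.58 CPM in KO and 4.16, 8.15 and 0.622 CPM in WT libraries. Cyp2d9 was at 151, 129 and 137 CPM in KO and 162, 143 and 64.4 CPM in WT libraries. These 5 genes were lowest in WT replicate 3, as was Mup20 at 839.9 CPM there, against 969 CPM or more in the other libraries. Cyp7b1, looked at with them, was lowest in KO replicate 3 at 16.8 CPM, and Hsd3b5 was near 0 in all 6. The share of all genes that were lowest in WT replicate 3 was not counted, so there is no background for comparison. Of the 100-base stretches of Cyp4a12a, 35.8% also occur in Cyp4a12b, so this pair does not give separate observations. A shared change of male-biased genes in WT replicate 3 was not tested.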
